A study of Mus musculus with 18 samples.

Results

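Thapsigargin was compared with the solvent DMSO in mouse embryonic fibroblasts labelled Ago2+/+. The comparison holds 6 of the 18 libraries of the series, 3 for each treatment, and was read from the rows of the deposited table that pair these 2 groups. The names of both groups there, and the titles of their libraries, start with DCR1, whereas other fields label them Ago2+/+. The reason for these names is not given. The agent was given at 500 nM for 6 h in the group labelled thapsigargin, and the other group received the solvent by its label, whereas the methods of the study call it untreated. The other 4 groups are Ago2+/+ tunicamycin and Ago2-/- under DMSO, thapsigargin or tunicamycin, where tunicamycin, which blocks N-glycosylation in the ER, was used at 3 ug/ml. The Ago2+/+ and Ago2-/- cells were fibroblast lines obtained from another laboratory, and the study states that its lines were not authenticated, but that the absence of Ago2 protein from the Ago2-/- line was examined by immunoblot. It describes the replicates of its experiments in general as biological, and the labels do not say which culture each library came from. The genotype labels of replicate 2 conflict in both groups compared here: the source field says Ago2-/- and the genotype field says Ago2+/+. The same fields conflict in replicate 2 of Ago2+/+ tunicamycin and in replicate 3 of Ago2-/- DMSO, which makes 4 libraries in all. None of them could be left out, because the table holds 1 pooled value per group. Of the 51499 loci in the table, 11755 had a mean of at least 1 FPKM over both groups and are the loci described here. FPKM counts sequenced fragments per kilobase of transcript, scaled to the mapped fragments of a library. Every FPKM below is the authors' pooled value for 3 libraries, without an SD and without a known depth, so no difference could be tested and none of the comparisons has a replicate check.

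Thapsigargin blocks the SERCA pumps that fill the endoplasmic reticulum (ER) with calcium. Calcium loss disturbs the folding of secretory and membrane proteins and is sensed by the unfolded protein response. That response has 3 sensors in the ER membrane: IRE1, which splices the Xbp1 mRNA, ATF6, which is cleaved into a transcription factor, and PERK, which slows translation while ATF4 and CHOP (gene Ddit3) are made. Fibroblasts are secretory cells that deposit collagen and other matrix proteins. When they take on a contractile state they assemble smooth muscle actin and its partners.

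A locus is called higher or lower here when log2(FPKM + 1) differed by at least 1, a 2-fold difference. This is a rule of size and not a test. A locus near 0 in 1 group passes the filter only when the other group is high enough for a call. The call of such a locus is set by the filter. Under thapsigargin 899 of the 11755 loci (7.65%) were higher and 677 (5.76%) were lower, together 1576 loci or 13.4%. These shares are the background against which each gene list below is read. The median difference over all loci was 0.013 on the log2 scale, and 5740 loci lay within 1.25-fold. At least 8-fold differences were found at 140 loci that were higher and 78 that were lower. Of the called loci, 99 were listed at 0 in DMSO and 53 were listed at 0 under thapsigargin. Protein-coding loci were called higher in 7.69% and lower in 4.77% of 9678 cases. Loci of short noncoding RNAs were called far more often, 27.2% higher and 39.1% lower of 92. FPKM divides by transcript length, which can make it unstable for short transcripts, but a part of length in these calls was not tested. The class was set by biotype and also held the mitochondrial ribosomal RNAs mt-Rnr1 and mt-Rnr2.

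**Figure D1:**
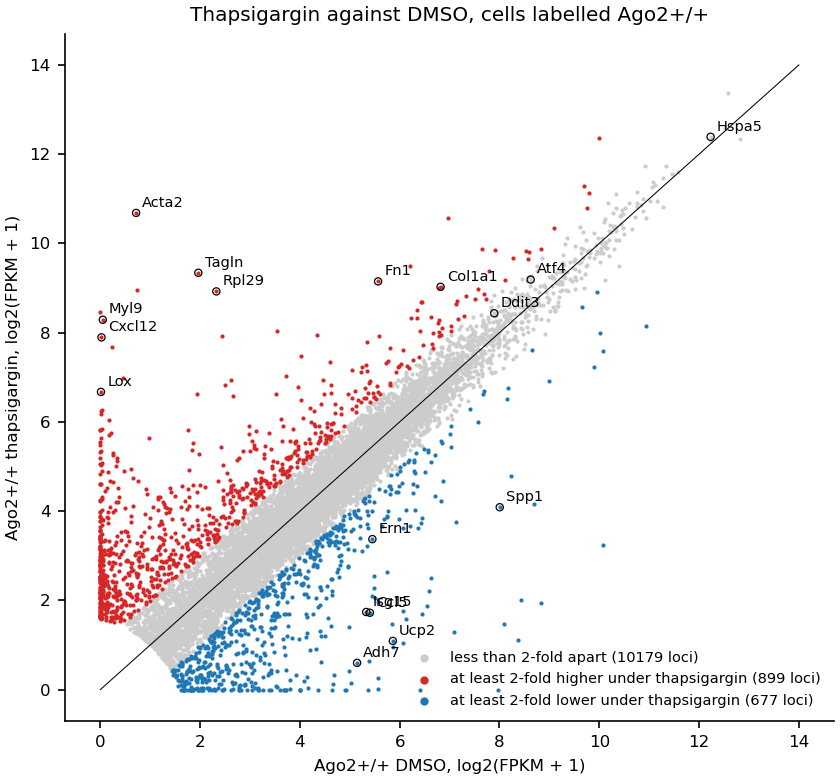
Levels of 11755 loci in the groups labelled Ago2+/+ DMSO (x axis) and Ago2+/+ thapsigargin (y axis), both as log2(FPKM + 1), 1 pooled value per group; the line marks equal levels. The 899 red loci were at least 2-fold higher under thapsigargin and the 677 blue loci at least 2-fold lower; Acta2 lies far above the line at 0.644 and 1644 FPKM, whereas Hspa5, at 4808 and 5367 FPKM, lies close to it.

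The labels of the 2 groups were examined first with genes of the sex chromosomes, which are used to tell cell lines apart. The 4 Y-linked genes of the list were all listed at 0 in DMSO. Under thapsigargin Eif2s3y, a translation initiation factor subunit, stood at 32.3 FPKM, the RNA helicase Ddx3y at 23.3, the histone demethylase Kdm5d at 7.77 and Uty at 6.03. In the other 4 groups these 4 genes were above 0 in Ago2-/- tunicamycin alone, at 30.3, 24.7, 7.97 and 6.64 FPKM in the same order. Xist, the RNA that silences an X chromosome, was measured as 1 locus with 2 other gene models. That locus stood at 46.6 FPKM in DMSO and at 0.0102 under thapsigargin, and its other high value was 33.5 FPKM in the group labelled Ago2-/- thapsigargin. The treatment and the difference in sex-linked genes cannot be told apart in this comparison. Every difference below is therefore one between 2 groups by their labels.

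Across all loci, the 2 groups each had a close neighbour under another label. Ago2-/- tunicamycin and Ago2+/+ thapsigargin differed by at least 2-fold at 1.21% of 11654 loci. Ago2-/- thapsigargin and Ago2+/+ DMSO differed at 2.08% of 11528 loci. The 2 groups compared here differed at 13.4%, as given above. Spearman's rho of FPKM across loci was 0.984 and 0.975 for the close pairs and 0.902 for thapsigargin against DMSO. Loci are not independent replicates, and these values describe the groups.

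Ago2 itself, the slicing Argonaute that the genotype labels refer to, stood at 22.1 FPKM in DMSO and at 17.0 under thapsigargin, a log2 difference of -0.36. The groups labelled Ago2-/- were at 5.61 (DMSO), 20.7 (thapsigargin) and 15.5 FPKM (tunicamycin), and Ago2+/+ tunicamycin was at 5.75. The level of Ago2-/- thapsigargin thus lay between those of the 2 groups compared here, and that of Ago2-/- tunicamycin just below both. The part of the gene that is deleted is not given in the labels, and these levels were not used to check the genotype. Of 14 measured genes of RNA silencing none was called in either direction, with a median of 0.06. Dicer1, which cuts small RNAs from their precursors, was at 24.9 and 18.7 FPKM. Ago1 was at 8.28 and 13.8 FPKM (0.67 on the log2 scale, short of a call), and Ago3 stood at 6.47 and 8.94. Ago4 was below the filter.

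The labelled cell type was examined with marker lists. Vimentin, the intermediate filament of mesenchymal cells, was abundant in both groups (Vim, 1439 and 1181 FPKM). No epithelial (7 genes), endothelial (6) or pluripotency marker (6) passed the filter, and their summed levels were below 0.5 FPKM in both groups. Of 7 leukocyte markers Cd68 alone passed, at 1.77 and 1.36 FPKM, and the pan-leukocyte gene Ptprc did not. Of 6 striated muscle markers the troponin gene Tnnt2 passed, at 2.76 and 3.3 FPKM. Of 6 neural markers Nes and Map2 passed, and both are also found in cultured mesenchymal cells. Of 12 fibroblast markers with a locus of their own 9 passed the filter, and Dcn, at 0.0488 and 0.0265 FPKM, was among those that did not. Among the 9 that passed, 5 were higher under thapsigargin and none was lower (median 1.00). The fibroblast marker S100a4, left out of that count because its locus holds 2 other gene models, was lower, at 1967 and 285 FPKM (-2.78).

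Genes of the unfolded protein response were mostly expressed at high levels in both groups, and their shifts were small beside those of contractile and matrix genes. Hspa5 (chromosome 2, 34771970 to 34777547, plus strand, GRCm38), which encodes the main ER chaperone BiP, stood at 4808 FPKM in DMSO and 5367 under thapsigargin, a 1.12-fold ratio. In the other groups it ranged from 3677 FPKM in Ago2-/- thapsigargin to 7682 in Ago2-/- DMSO, so that the level under thapsigargin lay inside the range of the groups labelled DMSO. Ddit3 (chromosome 10, 127290774 to 127296288, plus strand) was at 237 FPKM in DMSO and 345 under thapsigargin, a 1.45-fold ratio, and between 253 and 349 in the remaining groups. Ddit3, which is normally low in unstressed cells, was thus at 237 FPKM or more in all 6 groups. Atf4 stood at 394 and 583 FPKM, Xbp1 at 91.6 and 117, and Herpud1, an adaptor of ER-associated degradation, at 293 and 431. None of these 5 genes reached 2-fold.

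**Figure D2:**
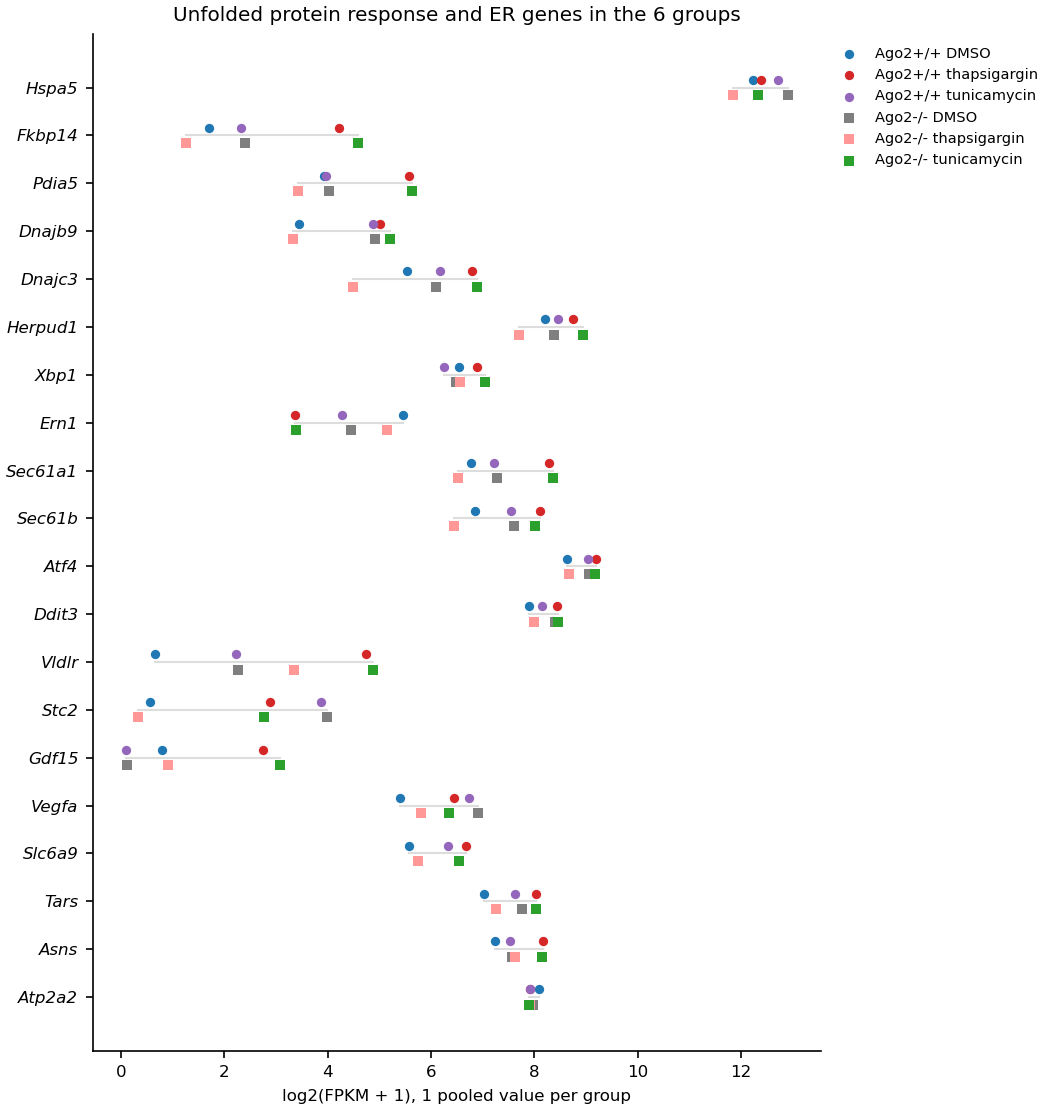
Genes of the unfolded protein response, amino acid supply and the SERCA pump in the 6 groups, as log2(FPKM + 1), with 1 pooled value per group (circles, labelled Ago2+/+; squares, labelled Ago2-/-; grey line, range). Red circles (Ago2+/+ thapsigargin) lie beside green squares (Ago2-/- tunicamycin) for Fkbp14, Pdia5, Sec61a1 and Vldlr, whereas Hspa5 lies between 3677 and 7682 FPKM and Ddit3 between 237 and 349 in all groups.

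All 24 ER chaperones and folding enzymes with a locus of their own were measured. Of these 5 were higher under thapsigargin, none was lower, and 19 were less than 2-fold apart (median 0.29, range -0.51 to 2.53). The prolyl isomerase Fkbp14 had the largest difference, from 2.25 to 17.7 FPKM (7.88-fold). The disulfide isomerase Pdia5 stood at 14.2 and 46.9 FPKM. The BiP cochaperones Dnajb9 and Dnajc3 went from 9.86 to 31.4 and from 45.6 to 110 FPKM. Creld2, a protein of the ER that is made under stress, was at 211 and 430 FPKM. Under the Ago2-/- labels the log2 differences of these 5 genes were -1.15 (Fkbp14), -0.60 (Pdia5), -1.58 (Dnajb9), -1.60 (Dnajc3) and -1.64 (Creld2), and Pdia5 was not called there. The abundant chaperones lay close to 0: Hsp90b1 at 2063 and 1990 FPKM, Calr at 1871 and 1690, and Canx at 372 and 391.

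Of 32 measured genes of the IRE1 branch and of ER-associated degradation, 3 were higher and 1 was lower (median 0.40), and 23 of the 32 differences were above 0. The 3 that were higher encode the channel through which proteins enter the ER: Sec61a1 (109 and 312 FPKM), Sec61b (114 and 274) and the associated Ssr1 (54.6 and 116). Among the 17 measured degradation genes none was called, with a median of 0.44, and the largest differences were Syvn1, the ubiquitin ligase of the pathway, at 61.4 and 121 FPKM, and the channel protein Derl1 at 41.0 and 79.4. The gene that was lower was Ern1 (chromosome 11, 106394650 to 106487852, minus strand), which encodes the sensor IRE1 alpha. It stood at 42.8 FPKM in DMSO and 9.36 under thapsigargin, a fall by 2.08 on the log2 scale. Its level was 9.41 FPKM in Ago2-/- tunicamycin and 34.3 in Ago2-/- thapsigargin. The sensor gene Atf6 was at 32.3 and 28.9 FPKM.

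In the PERK branch 4 of 22 measured genes were higher, none was lower, and the median was 0.55. All 4 were targets of the branch, and 3 of them were below 1 FPKM in DMSO. Those 3 passed the filter only through their level under thapsigargin. The lipoprotein receptor Vldlr went from 0.565 to 25.7 FPKM, the secreted stanniocalcin Stc2 from 0.47 to 6.37, and the stress cytokine Gdf15 from 0.738 to 5.67. Vegfa, the vascular growth factor, was at 41.3 and 86.0 FPKM. The 11 measured targets had a median of 0.75, and 7 of them were not called. Among these 7, Ddit4 was at 27.4 and 48 FPKM (0.79), Fgf21 at 2.85 and 5.5 (0.75) and Slc3a2 at 397 and 615 (0.63), whereas Trib3 was at 118 and 106 (-0.16) and Chac1 at 95.6 and 63.5 (-0.58). The factors Nupr1 (0.61), Atf3 (0.53) and Atf5 (-0.69) and the phosphatase subunit Ppp1r15a (-0.03) were not called either. The sensor gene Eif2ak3 was at 8.83 and 17.4 FPKM (0.91). The list of the PERK branch shared Herpud1 with the previous list.

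Of 30 measured genes that supply amino acids under ATF4, 3 were higher and none was lower (median 0.21). These were the transporters Slc43a1 (0.222 and 3.77 FPKM) and Slc6a9 (46.4 and 101) and the tRNA synthetase Tars (130 and 262), whose difference of 1.00 sat at the threshold. Asparagine synthetase, Asns, was at 150 and 285 FPKM (0.92). Serine synthesis genes moved little, with Phgdh at 438 and 404 FPKM and Psat1 at 443 and 482.

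Genes of ER calcium were split. The SERCA pump Atp2a2, the target of thapsigargin in fibroblasts, was at 272 and 241 FPKM. Of 23 measured genes 5 were higher and 1 was lower (median -0.04). The ER calcium-binding proteins Rcn3 (21.0 and 122 FPKM) and Calu (206 and 467) were higher, as were the selenoprotein Selenok (75.6 and 167), the plasma membrane pump Atp2b4 (0.582 and 5.43) and the factor Nfatc4 (0.125 and 7.09). The pump Atp2b1 was lower, at 71.0 and 33.5 FPKM. None of the 5 genes of store-operated entry was called, with a median of -0.66. Orai2 was at 8.55 and 4.05 FPKM.

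Among 13 measured genes of cell death 2 were higher and 2 were lower (median -0.15). Pmaip1, which encodes the death factor NOXA, went from 0.0033 to 6.9 FPKM and Casp12 from 1.08 to 3.9. The survival gene Bcl2l1 fell from 34.3 to 13.7 FPKM. Bbc3 and Bcl2l11, which encode death factors of the same family as NOXA, were at 10.5 and 6.13 and at 5.36 and 3.55 FPKM, neither called. Of 17 measured immediate early genes Egr1 (13.1 and 36.9 FPKM) and Dusp1 (9.16 and 23.4) were higher, and Klf2 (10.2 and 1.62) and Fosl1 (72.0 and 34.3) were lower.

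The ER stress response element, to which ATF6 binds with NF-Y, was searched as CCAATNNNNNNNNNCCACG on both strands in the 250 bases before each RefSeq start of the mouse assembly GRCm38.p6. It was found in 35 of 27025 genes (0.13%) and in 8 of 22 ER chaperone and folding genes with a promoter in that set. Those 8 held 2 of the 5 that were higher, Dnajc3 and Creld2, and 6 of the 17 that were not called, Hspa5 among them. The stretches of these 3 promoters are given with the element in capitals, 5′ to 3′ on the strand of the gene. In the promoter of Creld2 it lies on the opposite strand. The stretch of Hspa5 is before its RefSeq start but inside the gene position given above, which is from GENCODE and starts earlier.
Hspa5, chr2:34772005-34772063, plus strand: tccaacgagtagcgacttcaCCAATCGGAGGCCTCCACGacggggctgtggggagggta
Dnajc3, chr14:118937807-118937865, plus strand: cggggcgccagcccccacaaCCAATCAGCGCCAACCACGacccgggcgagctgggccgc
Creld2, chr15:88819500-88819558, plus strand: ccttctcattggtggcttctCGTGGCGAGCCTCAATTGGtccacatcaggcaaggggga
The C/EBP-ATF response element, searched as TGATGNAAT in the same way, was found in 0.91% of all genes and in 3 of 23 genes of amino acid supply, Pycr1, Aars and Gars. None of the 3 genes of that list that were higher held it. A match of letters is a description of the sequence and was not related to binding in these data.

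Contractile genes held the largest difference of the comparison. Of 28 measured smooth muscle contractile genes 17 were higher under thapsigargin and 1 was lower, with a median of 1.32 beside 0.013 over all loci. Acta2, Actg2, Cnn1, Lmod1 and Myl9 were below 1 FPKM in DMSO and passed the filter only through their level under thapsigargin. Acta2 (chromosome 19, 34241090 to 34255590, minus strand), the smooth muscle actin of contractile fibroblasts, stood at 0.644 FPKM in DMSO and at 1644 under thapsigargin, a difference of 9.97 on the log2(FPKM + 1) scale. Its level was 1252 FPKM in Ago2-/- tunicamycin and between 1.75 and 3.77 in the other 3 groups. Tagln (chromosome 9, 45929619 to 45936058, minus strand), an actin-bundling protein, went from 2.9 to 648 FPKM. The myosin light chain Myl9 went from 0.0346 to 312 FPKM, the calponin Cnn1 from 0.361 to 126 and the enteric actin Actg2 from 0.198 to 38.2. The same separation held for these genes in the remaining groups: Ago2-/- tunicamycin had 444 FPKM of Tagln, 252 of Myl9 and 105 of Cnn1, and the other 3 groups had at most 2.33, 0.251 and 0.292.

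Contractile genes that were already expressed in DMSO were higher by less. The tropomyosin Tpm1 was at 199 and 945 FPKM, Tpm2 at 47.0 and 242, caldesmon (Cald1) at 109 and 512, filamin (Flna) at 190 and 502 and the nonmuscle myosin Myh9 at 108 and 298. None of the 6 measured regulators of the program was called. Srf, the factor that binds their promoters, was at 15.1 and 28.1 FPKM, and its partner Mkl1 at 17.8 and 33.7. Desmin, an intermediate filament of muscle, was the gene that was lower (Des, 2.95 and 0.397 FPKM). Myh11, Mylk, Myocd and Synpo2 did not pass the filter.

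The CArG box, the site of SRF, is 2 C, 6 bases that are A or T, and 2 G. It was found in the 250 bases before the start of 1.62% of all genes and in 5 of 26 smooth muscle genes with a promoter in the set. Of the 14 genes that were higher and had such a promoter 3 held it, Myl9, Cnn2 and Myl6. Of 9 that were measured and not called 2 held it, Vcl and Srf. Acta2 had no exact match in that window. Stretches of the 3 promoters whose genes were higher are given with the box in capitals.
Myl9, chr2:156775283-156775332, plus strand: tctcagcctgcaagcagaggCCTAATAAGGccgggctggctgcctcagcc
Cnn2, chr10:79988524-79988573, plus strand: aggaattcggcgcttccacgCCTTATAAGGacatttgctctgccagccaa
Myl6, chr10:128493030-128493079, minus strand: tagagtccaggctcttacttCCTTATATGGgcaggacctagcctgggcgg
Myl9 was near 0 in DMSO, whereas Cnn2 (80.4 and 319 FPKM) and Myl6 (548 and 1295) were expressed in both groups.

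Matrix genes were higher as a group. Of 32 measured matrix and matricellular genes 23 were higher and 2 were lower, with a median of 2.09. Bgn, Lox, Timp3, Mmp2, Postn, Thbs2 and Wisp2 were below 1 FPKM in DMSO and passed the filter only through their level under thapsigargin. The small proteoglycan biglycan (Bgn) went from 0.667 to 498 FPKM. The collagen crosslinking enzyme Lox went from 0.00895 to 101 FPKM, and its relatives Loxl1, Loxl2 and Loxl3 were also higher, with Loxl2 at 4.51 and 32 FPKM. Serpinf1, a secreted serpin, was at 4.42 and 242 FPKM and the protease inhibitor Timp3 at 0.0261 and 29.0. Among matricellular genes Ctgf was at 10.7 and 260 FPKM, Tnc at 2.82 and 97.1, Thbs1 at 19.2 and 246 and Fn1 at 46.4 and 567. Osteopontin (Spp1) was the strongest of the 2 that were lower, at 256 FPKM in DMSO and 16 under thapsigargin, and Nov was the other.

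Collagens separated by type. All 7 measured fibrillar chains were above 0 in difference, and 6 of them were called higher: Col1a1 (112 and 521 FPKM), Col1a2 (86.2 and 410), Col5a1, Col5a2, Col5a3 and Col11a1. The fibrillar Col3a1 was at 9.78 and 16.3 FPKM. Of 4 measured chains of basement membrane and network collagens 3 were lower: Col4a1 (98.4 and 33.4 FPKM), Col4a2 (59.5 and 20.4) and Col8a1 (85.6 and 12.3). Among the other chains Col12a1 was higher, from 0.965 to 48.9 FPKM, and Col18a1 was lower, at 14.2 and 5.0 FPKM. Over all 17 measured collagens 9 were higher and 4 were lower (median 1.06). Col11a1 (0.411 and 10.8 FPKM) and Col12a1 passed the filter only through their level under thapsigargin. The list of collagens shared Col1a1, Col1a2 and Col3a1 with that of fibroblast markers.

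**Figure D3:**
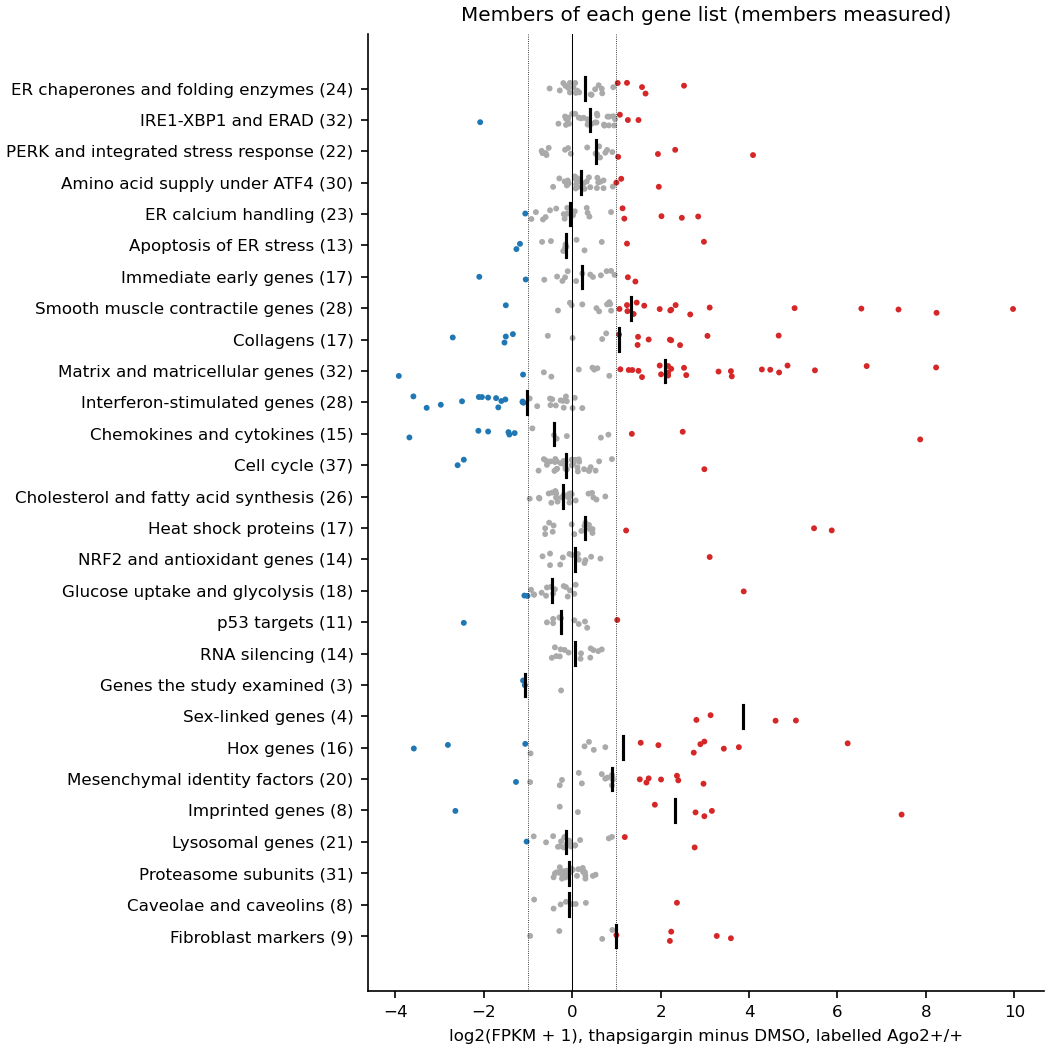
Difference of log2(FPKM + 1), thapsigargin minus DMSO, of every measured member of the gene lists with at least 3 measured members (number in brackets). Red and blue points are at least 2-fold higher or lower, dotted lines mark 2-fold and black bars the median. Matrix genes have a median of 2.09, smooth muscle genes of 1.32 and interferon-stimulated genes of -1.03, whereas proteasome subunits stay within 0.6 of 0. The interferon-stimulated median did not reach 2-fold without the filter on low values.

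Interferon-stimulated genes were lower under thapsigargin. Of 28 measured genes 14 were lower and none was higher, with a median of -1.03, and 25 of the 28 differences were below 0. Of those that were lower, Irf7, Ifit1, Oas1a, Oasl1, Oasl2, Usp18, Xaf1, Gbp3 and Nlrc5 were below 1 FPKM under thapsigargin. They passed the filter only through their level in DMSO. The median of the list did not reach 2-fold without the filter on low values, nor with a mean of at least 5 FPKM. Isg15 (chromosome 4, 156199424 to 156200818, minus strand), a ubiquitin-like protein, stood at 39.2 FPKM in DMSO and 2.34 under thapsigargin. The antiviral effectors Oasl1 (12.2 and 0.35 FPKM), Oasl2 (8.53 and 0.22) and Ifit1 (7.12 and 0.448) were lower, as were the factor Irf7 (3.86 and 0.303), the RNA sensor Ifih1 (6.81 and 1.37) and Bst2 (63.5 and 28.7). Isg15 was at 21.4 FPKM in Ago2-/- thapsigargin, 5.56 in Ago2-/- tunicamycin and at most 1.43 in the other 2 groups. Of 4 measured sensors 1 was lower, Ifih1, and of 3 measured transcription factors 1 was lower, Irf7. Among those not called Ddx58 was at 12 and 10.8 FPKM, Irf1 at 16.3 and 16.4 and Stat2 at 6.54 and 5.52. Of 7 measured antigen presentation genes H2-D1 (170 and 77.4 FPKM) and the regulator Nlrc5 (3.26 and 0.403) were lower.

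The core of the interferon-stimulated response element, searched as GAAANNGAAA on both strands with overlaps counted, was found in the 250 bases before the start of 3.46% of all genes. It was found in 13 of 33 interferon-stimulated genes with a promoter in the set. Of the 14 that were lower 11 had such a promoter, and 5 of these held the core: Isg15, Ifit1, Oas1a, Bst2 and Gbp3. Of 12 that were measured and not called 2 held it. The stretches of the promoters of Isg15 and Ifit1 are given with the matches in capitals.
Isg15, chr4:156200855-156200916, minus strand: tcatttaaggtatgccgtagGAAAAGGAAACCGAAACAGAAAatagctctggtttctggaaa
Ifit1, chr19:34640765-34640833, plus strand: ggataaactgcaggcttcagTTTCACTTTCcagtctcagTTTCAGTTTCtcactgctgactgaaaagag
Isg15 held 3 overlapping matches and Ifit1 2 separate ones on the opposite strand.

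Of 15 measured chemokines and cytokines 6 were lower and 3 were higher (median -0.41). Cxcl12, the chemokine that holds stem cells in their niche, went from 0.0157 to 237 FPKM. It was between 194 and 245 FPKM in 3 of the other 4 groups and at 0.0127 in Ago2-/- thapsigargin. Ccl7 (2.84 and 20.6 FPKM) and Cx3cl1 (4.17 and 12.2) were also higher. The T cell chemokine Ccl5 fell from 41.3 to 2.3 FPKM, the interferon-induced Cxcl10 from 26.0 to 8.97 and the growth factor epiregulin (Ereg) from 20.2 to 3.89. Areg, Il11 and Ccl20 were lower as well.

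Genes of positional identity differed between the groups. Hox genes record the place of a fibroblast along the body axes and are stable in culture. Of 16 measured Hox genes 8 were higher and 3 were lower. All 7 measured genes of cluster B were higher, and each of them was at or below 0.242 FPKM in DMSO. A gene this low in DMSO passes the filter only when its level under thapsigargin is high enough for a call. That all 7 were called higher was thus set by the filter. Below the filter, Hoxb5 was at 0.0272 and 1.94 FPKM, Hoxb13 at a listed 0 and 1.02, and Hoxb1 at a listed 0 in both groups. Hoxb9 went from 0.00391 to 74.3 FPKM, Hoxb8 from 0.031 to 13.0 and Hoxb2 from a listed 0 to 9.8. In cluster A, Hoxa11 (14.1 and 0.259 FPKM) and Hoxa9 (20.7 and 9.42) were lower and Hoxa5 (2.33 and 8.75) was higher, and in cluster D Hoxd13 went from 6.03 FPKM to a listed 0. Hoxb9 was at 31.6 to 76.1 FPKM in 3 of the other groups and at 0.0161 in Ago2-/- thapsigargin. The pattern of Hoxb9 over the 6 groups differed from that of the Y-linked genes, which had a listed 0 in 2 of the groups that expressed Hoxb9. Treatment and a difference between the cells cannot be told apart here.

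Of 20 measured transcription factors of mesenchymal identity 7 were higher and 1 was lower (median 0.90). Gata6 went from a listed 0 to 6.85 FPKM and passed the filter only through that level. Meis1 went from 1.04 to 9.76 FPKM, Prrx2 from 9.4 to 52.6 and Tbx3 from 1.66 to 9.71. Runx1 was lower, at 11.4 and 4.13 FPKM. Of 15 imprinted genes with a locus of their own 8 were measured, of which 5 were higher and 1 was lower. Grb10, Cdkn1c and Plagl1 (a listed 0 and 5.9 FPKM) passed the filter only through their level under thapsigargin, which set their calls. The median of the list did not reach 2-fold without the filter on low values. Grb10, an adaptor that restrains growth signalling, went from 0.176 to 205 FPKM, Peg10 from 1.22 to 18.8 and Cdkn1c from 0.11 to 7.81. Phlda2 fell from 7.43 to 0.352 FPKM.

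**Figure D4:**
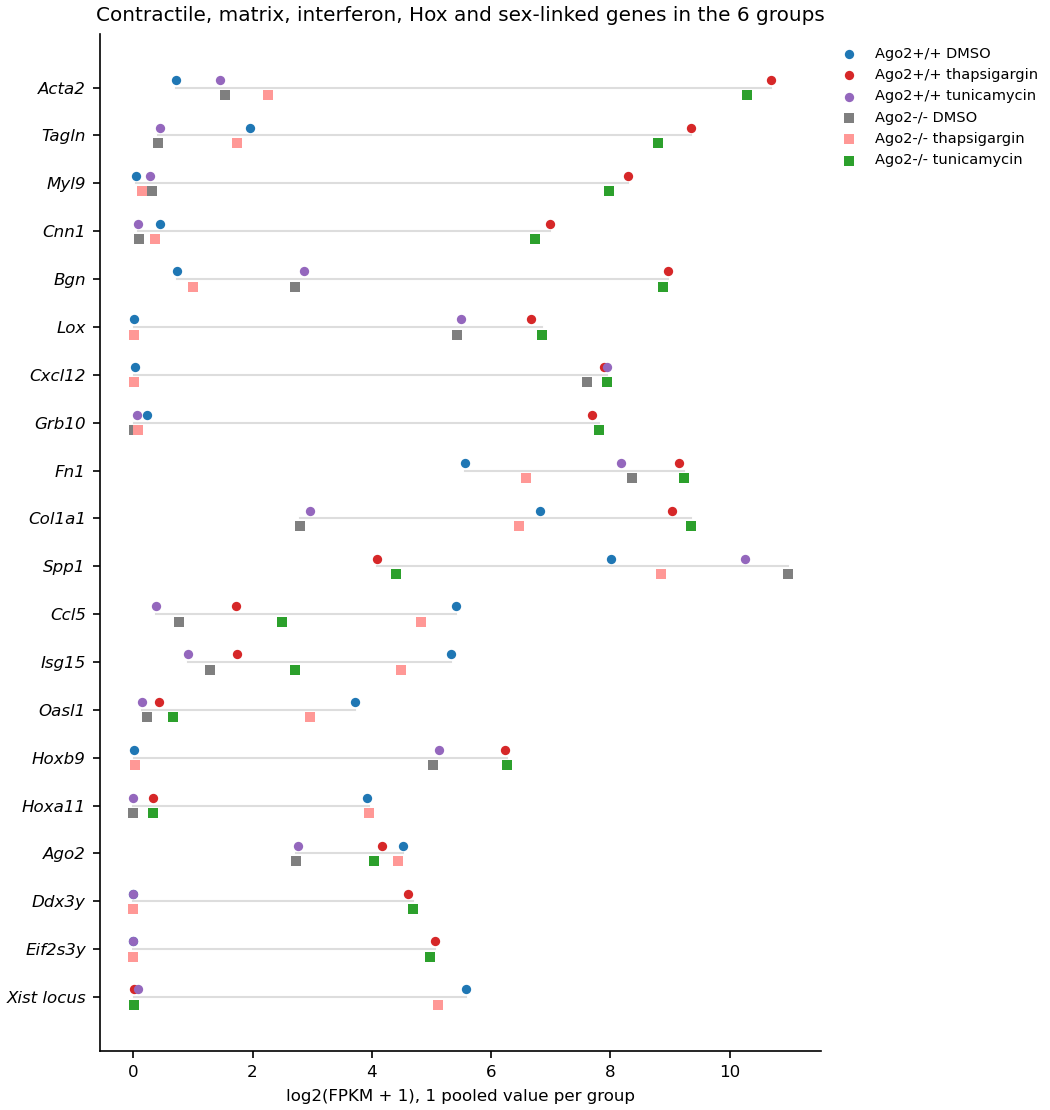
Contractile, matrix, chemokine, interferon, Hox and sex-linked genes and Ago2 in the 6 groups, as log2(FPKM + 1), with 1 pooled value per group (circles, labelled Ago2+/+; squares, labelled Ago2-/-; grey line, range). The red circle (Ago2+/+ thapsigargin) and the green square (Ago2-/- tunicamycin) lie together and apart from the other groups for Acta2, Tagln, Myl9, Cnn1, Grb10, Ddx3y and Eif2s3y.

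Growth and housekeeping programs differed little. All 37 cell cycle genes with a locus of their own were measured, 1 was higher and 2 were lower (median -0.15). Among 15 genes of G2 and mitosis none was called, and Mki67 was at 75.4 and 58.5 FPKM and Cdk1 at 270 and 361. The exceptions were regulators: cyclin D1 (Ccnd1, 85.7 and 13.4 FPKM) and the inhibitor Cdkn1a (66.4 and 11.3) were lower, and the inhibitor Cdkn1c was higher. Of 11 measured p53 targets Cdkn1a was lower and Fas (1.35 and 3.75 FPKM) was higher, while Trp53 itself was at 165 and 202. Of 31 proteasome subunits none was called (median -0.06, from -0.42 to 0.53). Of 26 genes of cholesterol and fatty acid synthesis none was called (median -0.21), with the largest difference at Dhcr7, 12.1 and 5.74 FPKM, which passed 2-fold when a smaller pseudocount was used.

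Glycolysis genes leaned lower, with 15 of 18 differences below 0 and a median of -0.46. Aldoa (808 and 381 FPKM) and Pfkp (37.9 and 18.3) were called lower, and Ldha was at 1111 and 583 (-0.93). Ldhb, the lactate dehydrogenase chain of oxidative tissues, went from a listed 0 to 13.8 FPKM. Of 17 measured heat shock proteins 3 were higher and none was lower (median 0.28). The small heat shock genes Hspb1 (0.135 and 65.2 FPKM) and Hspb8 (a listed 0 and 43.4) were nearly silent in DMSO and in Ago2-/- thapsigargin and were expressed in the other groups, and Hspa1b was at 4.09 and 10.9. The cytosolic chaperones Hspa8 (1298 and 1786 FPKM) and Hsp90ab1 (1405 and 1709) were not called. Of 14 NRF2 target genes Nqo1 was higher, from 0.335 to 10.5 FPKM, and none was lower. Of 21 measured lysosomal genes Ctsh (a listed 0 and 5.84 FPKM) and Lipa (8.17 and 20.0) were higher and Lamp1 (401 and 196) was lower. Of 8 measured caveolar genes Cavin4 alone was called, from 0.447 to 6.49 FPKM, and Cav1 was at 161 and 171.

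The 12 largest rises by the naming rule were Acta2, Snord65, Myl9, Bgn, Cxcl12, Grb10, Tagln, Lox, Cnn1, Fbln5, Hoxb9 and Ltbr, of which 11 had at least 70 FPKM under thapsigargin and less than 1 in DMSO. Fbln5, an elastic fibre protein, went from 0.0205 to 76.6 FPKM, and Ltbr, the lymphotoxin receptor, from 0.00376 to 71.0. The small nucleolar RNA Snord65 was at 353 FPKM under thapsigargin and listed at 0 in all 5 other groups. The 12 largest falls were Snord70, Ucp2, Ifi202b, Itgb7, Adh7, Snord13, Msln, Sigirr, Spp1, Kcnn4, Fmnl1 and Crabp2. The mitochondrial carrier Ucp2 fell from 57.2 to 1.13 FPKM, the retinol-metabolizing Adh7 from 34.4 to 0.515, mesothelin (Msln) from 97.9 to 4.64 and the integrin chain Itgb7 from 30.5 to 0.341. The 10 falls that are not small nucleolar RNAs were all low in Ago2-/- tunicamycin too, at 20.1 FPKM for Spp1 and at most 6.66 for the rest. Snord70 and Snord13 were above 0 in the DMSO group alone.

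Ribosomal protein genes, pseudogenes and numbered gene models were kept apart because their reads can be shared with near-identical copies. Their 3 largest rises were Rpl29 (4.01 and 485 FPKM) and the processed pseudogenes Gm43471 (0.154 and 52.8) and Gm15526 (a listed 0 and 38.9). The 3 largest falls were Gm29216 (328 and 1.15 FPKM), Gm28661 (456 and 2.82) and Gm10260 (1080 and 8.48). Rpl29 was at 4.54 FPKM in Ago2-/- thapsigargin and between 393 and 431 in the other 3 groups, and Gm10260 was at 1255 in Ago2-/- thapsigargin and at most 7.37 in the other 3. Gm29216 and Gm28661 lie among copies of mitochondrial genes on chromosome 1. All 6 measured loci of that cluster, chosen after their values were seen, were lower, by 5.03 to 7.25 on the log2 scale. The mitochondrial genes themselves varied. The mRNAs mt-Co1 (0.05 on the log2 scale), mt-Nd1 (0.03) and mt-Cytb (0.17) were close together, mt-Co2 (0.82) was short of a call, mt-Nd3 (1.40) was higher and the ribosomal RNA mt-Rnr1 (-2.06) was lower.

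Of the genes that the study examined, 3 were near or below the filter. Nov, a matricellular gene, was at 2.45 FPKM in DMSO and 0.601 under thapsigargin (-1.11), and Mertk, a receptor of apoptotic cells, at 2.53 and 0.684 (-1.07). C1rl, a complement protease, was at 1.19 and 0.359 FPKM and did not pass the filter. The control gene Rpl19 was at 1285 and 1079 FPKM (-0.25). Nov was at 2.85 FPKM and Mertk at 2.96 in Ago2-/- thapsigargin. Both were below 1 FPKM in the other 3 groups. The study chose Nov, Mertk and C1rl from its sequencing candidates, filtered as lower in Ago2+/+ and higher in Ago2-/- under thapsigargin and tunicamycin. The directions of these genes here are thus not independent of that choice.

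The same treatment in the groups labelled Ago2-/- shares no group with this comparison. There 14.8% of 11771 loci were called. Of the 11266 loci measured in both labelled genotypes, 6.41% were higher and 6.52% were lower under thapsigargin in the groups labelled Ago2-/-. Among the 650 of these loci that were higher in Ago2+/+, 60 (9.23%) were also higher in Ago2-/- and 283 (43.5%) were lower. Among the 623 that were lower in Ago2+/+, 79 (12.7%) were also lower and 245 (39.3%) were higher. In all, 139 loci were called the same way and 528 opposite ways. Spearman's rho of both differences was -0.245 across the 11266 loci.

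The largest differences of the same sign in both labelled genotypes came from pseudogenes and short RNA models. Of the 10 loci named by that rule, 6 were the mitochondrial copies on chromosome 1. The other 4 were Gm22392, Gm24260 and Gm10231, which were lower in both, and Gm22822, which was higher in both. Among genes with a known role, Col1a1 was higher in both (2.21 and 3.66 on the log2 scale), as were Col1a2 (2.24 and 2.04), Vldlr (4.09 and 1.09) and Tagln (7.38 and 1.32), and Spp1 was lower in both (-3.92 and -2.12). These 5 genes were picked after their values were seen. Of the 24 ER chaperones and folding enzymes 5 were higher and none was lower in Ago2+/+, whereas none was higher and 5 were lower in Ago2-/- (median -0.44), Hspa5 among them (-1.06).

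The loci called here were also compared between Ago2-/- tunicamycin and Ago2-/- thapsigargin, 2 groups that this comparison does not use. Of the 11564 loci measured in both pairs, 8.98% were higher and 5.54% were lower in Ago2-/- tunicamycin. Among the 864 of them that were higher under thapsigargin in Ago2+/+, 728 (84.3%) were higher in this second pair and 8 were lower. Among the 622 that were lower, 440 (70.7%) were lower and 16 were higher. Spearman's rho of both differences was 0.808 across these loci. The median level of the 899 higher loci was 10.7 FPKM in Ago2+/+ thapsigargin and 10.9 in Ago2-/- tunicamycin, 1.3 in Ago2+/+ DMSO and 1.78 in Ago2-/- thapsigargin, and 4.61 and 4.55 in Ago2+/+ tunicamycin and Ago2-/- DMSO. For the 677 lower loci these medians were 1.65, 2.1, 9.73, 8.24, 4.57 and 4.86 in the same order.

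**Figure D5:**
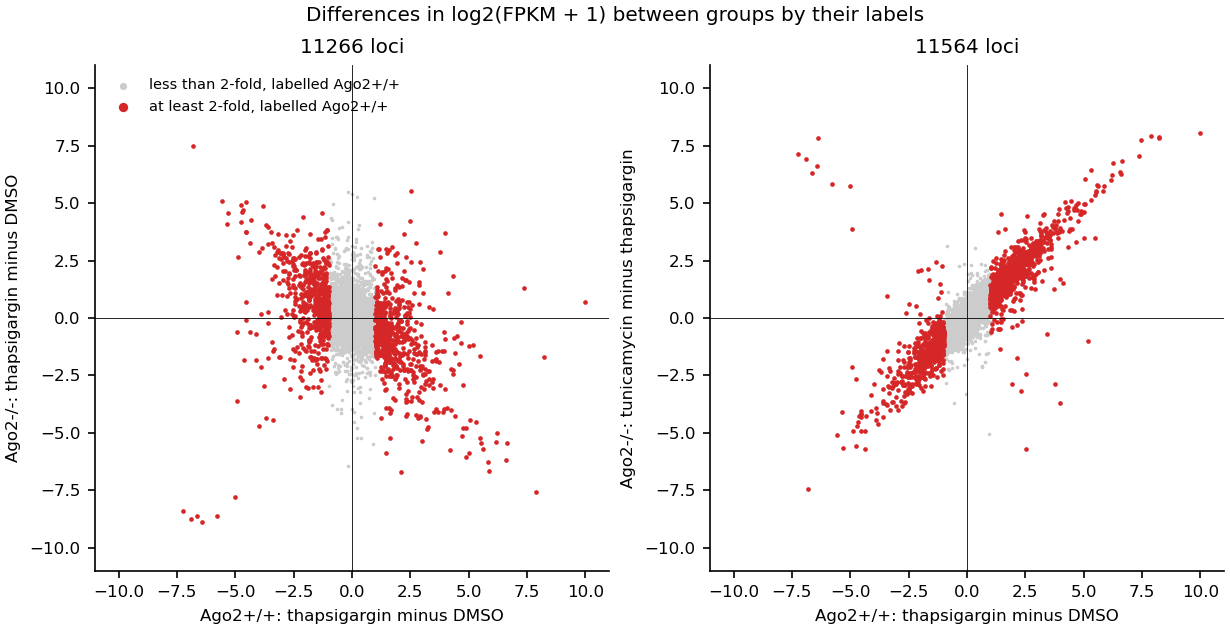
Difference of log2(FPKM + 1) between Ago2+/+ thapsigargin and Ago2+/+ DMSO (x axes) against thapsigargin minus DMSO in the groups labelled Ago2-/- (left, 11266 loci) and against tunicamycin minus thapsigargin in the groups labelled Ago2-/- (right, 11564 loci). Red loci are at least 2-fold apart on the x axis; they slope downward on the left (Spearman's rho over all loci -0.245) and upward on the right (0.808).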

How the data were processed

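Total RNA of fibroblasts was sequenced; the sources do not state RNA selection, strandedness or depth. Per the submitters' processing notes, FastQC 0.11.7, HISAT2 2.1.0, StringTie 1.3.4d and Cuffdiff 2.2.1 were used with GRCm38, and the methods name Ensembl release 91. The authors deposited FPKM, 1 value per group over 3 libraries, for 51499 loci and 15 pairs of groups (772485 rows). The table also holds the authors' fold changes, test statistics, p-values, q-values and calls, which were not used. Libraries were grouped by title, where names starting with DCR1 are labelled Ago2+/+ by other fields.

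Differences of log2(FPKM + 1) were computed with Python 3.11, pandas and numpy, keeping loci that averaged 1 FPKM or more in the groups compared. The pseudocount understates changes of low genes. A difference of at least 2-fold was called. No test was possible with 1 value per group, and no p-value was computed. The arithmetic of the calls was checked on simulated folds without noise, which does not measure how reliable the calls are. A list member was taken at its own locus, and at the locus with the higher mean where there were 2. Members in a locus with other genes were left out of counts, Xist apart.

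The members and lists were chosen with earlier results of these data known. Named are the 12 largest rises and falls, without pseudogenes, numbered Gm genes, Rik clones and ribosomal protein genes (the 3 largest of these each way apart), the 4 members of each list with the largest absolute difference, sex-linked genes, genes the study examined, Argonautes and Dicer1, 8 stress and contractile genes, and 10 loci changed alike in both labelled genotypes. Further members are named as examples, chosen after their values were seen. Gene positions are from GENCODE on GRCm38, and promoters from RefSeq (GRCm38.p6). Alternatives were another pseudocount, filter, fold, centring and set of loci. The values of 1 gene are not reported here.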

Additional observations from a re-analysis of the deposited data

Results flagged for a closer look

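Under thapsigargin 46 of the 154 named loci were called opposite ways in the 2 labelled genotypes. Of all 11266 loci measured in both, 528 were called opposite ways and 139 the same way. Most named loci were picked for large differences, so their count says nothing about loci in general. Each group is 1 pooled value, and none of these differences between genotypes was tested. Of each pair of log2 differences below, the first is labelled Ago2+/+ and the second labelled Ago2-/-.

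Some named genes of the ER and of stress were higher in Ago2+/+ and lower in Ago2-/-: Fkbp14 (2.53 and -1.15), Dnajb9 (1.58 and -1.58), Dnajc3 (1.24 and -1.60), Sec61b (1.26 and -1.16), Stc2 (2.33 and -3.66), Vegfa (1.04 and -1.12) and Pmaip1 (2.98 and -2.09). So were Egr1 (1.43 and -1.57), Hspb1 (5.87 and -6.67), Hspb8 (5.47 and -5.20), Nqo1 (3.11 and -1.80), Ldhb (3.88 and -4.10), Fas (1.02 and -1.47) and Cavin4 (2.37 and -1.55).

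Matrix and fibroblast genes with the same pattern were Bgn (8.23 and -1.70), Lox (6.66 and -5.43), Col12a1 (4.67 and -1.11), Serpinf1 (5.49 and -1.66), Timp3 (4.87 and -4.80), Fn1 (3.59 and -1.77) and Pdgfrb (3.27 and -2.30). The secreted or receptor genes Cxcl12 (7.87 and -7.59) and Ltbr (6.16 and -5.40) did so too. Among identity genes these were Hoxb9 (6.23 and -5.00), Hoxb8 (3.77 and -2.93), Hoxb2 (3.43 and -2.80), Prrx2 (2.37 and -2.23) and Peg10 (3.16 and -4.38). Not all matrix and fibroblast genes were called opposite ways: Col1a1 (2.21 and 3.66) and Col1a2 (2.24 and 2.04) were higher in both.

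Lower in Ago2+/+ and higher in Ago2-/- were the interferon-stimulated Isg15 (-3.59 and 3.21), Oasl1 (-3.29 and 2.73), Oasl2 (-2.97 and 2.40) and Ifit1 (-2.49 and 2.26), with Ccl5 (-3.68 and 4.05) and Ereg (-2.12 and 4.38). The same held for Ucp2 (-4.77 and 4.19), Fmnl1 (-3.86 and 3.05), Crabp2 (-3.81 and 4.87), Klf2 (-2.10 and 1.45), Hoxa11 (-3.58 and 3.94) and the locus of Xist (-5.56 and 5.09). Of the genes the study examined, Nov (-1.11 and 1.86) and Mertk (-1.07 and 1.31) were among them. The study chose both from its sequencing candidates, filtered as lower in Ago2+/+ and higher in Ago2-/- under both stressors. Their opposite directions here follow from that choice and are not an independent result.

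Loci that can share reads with near-identical copies were Rpl29 (6.60 and -6.16), Gm43471 (5.54 and -5.43), Gm15526 (5.32 and -4.51) and Gm10260 (-6.83 and 7.47).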

How the results depend on the processing

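No paired analysis was possible because the table holds 1 pooled value per group, and for the same reason no library could be left out. The pooled values limit precision to what 3 libraries give, and depth is unknown. Of 36 recomputed counts 24 stayed within 1.5 times. With a mean of at least 5 FPKM, 502 loci were higher and 369 lower, 64 were called the same way in both labelled genotypes and 247 opposite ways, over fewer loci. At 1.5-fold these were 1776, 1528, 380 and 1128, and at 4-fold 379, 219, 31 and 168. Under every setting tried more loci were called opposite ways than the same way. Without pseudogenes, numbered Gm genes and ribosomal protein genes 816 loci were higher and 516 lower. Of 31 list medians 25 kept their side of 2-fold under all settings, and no called value changed sign. Medians that crossed 2-fold without the filter on low values were those of collagens (0.29), interferon-stimulated genes (-0.56), Hox genes (0.38), imprinted genes (0.13), fibroblast markers (0.91) and the genes the study examined (-0.88). With a mean of at least 5 FPKM the medians of interferon-stimulated genes (-0.49), Hox genes (0.38) and the genes the study examined (-0.25) crossed it, and fibroblast markers did so when centred (0.99). Of 154 named loci 152 kept their call, the exceptions being Dhcr7 (-1.08 without a pseudocount) and Tars (0.99 when centred).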

Other observations

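The difference between thapsigargin and DMSO in the groups labelled Ago2+/+ varied by chromosome. Over 7913 protein-coding genes with a mean of at least 5 FPKM, the median log2 difference was 0.03 and 52.5% of genes were above 0. It was 0.34 over 401 genes of chromosome 10, where 80.5% were above 0, and 0.32 over 261 genes of chromosome 14 (80.1%). On chromosome 4 it was 0.29 over 519 genes, on chromosome 6 it was 0.28 over 369 and on chromosome 17 it was 0.25 over 394. It was -0.29 over 192 genes of chromosome 18, where 19.8% were above 0, and -0.27 over 271 genes of chromosome 12 (21.8%). Chromosomes 2 and 7 were both at -0.20. Between Ago2-/- tunicamycin and Ago2-/- thapsigargin, which are not part of this comparison, the medians over the same genes were 0.30 for chromosome 10, 0.37 for 14, 0.28 for 4, 0.05 for 6, 0.21 for 17, -0.26 for 18, -0.55 for 12, -0.07 for 2 and -0.25 for 7. For thapsigargin against DMSO in the groups labelled Ago2-/- they were 0.09, -0.11, -0.14, 0.32, -0.28, -0.03, 0.38, -0.31 and 0.12 in the same order. Genes of a chromosome are not independent replicates, and these shifts were chosen after the values were seen.

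The mitochondrial ribosomal RNA mt-Rnr1 was at 505 FPKM in Ago2+/+ DMSO and 120 under thapsigargin, whereas mt-Rnr2 was at 286 and 344. The mitochondrial mRNA mt-Nd3 was at 310 and 820 FPKM. Ago2+/+ tunicamycin held the highest mt-Nd3 value, 1983 FPKM.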
